A study of Homo sapiens with 5 samples.

Results

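PHF8 binding was examined at 7 genes of the RAS and MAP kinase pathway, NRAS, HRAS, BRAF, MAP2K1, MAP2K2, MAPK3 and NF1, out of 20162 protein-coding genes. The genes were chosen by name, with earlier results of these data known, and any PHF8 peak that overlapped the region within 1 kb of an annotated transcription start site (TSS) of such a gene was taken as its promoter peak. Chromatin of the human melanoma line SKMEL-147 was immunoprecipitated with an anti-PHF8 antibody and sequenced (ChIP-seq). Of the 5 samples in the series, 3 were PHF8 ChIP replicates (A, B1 and B2), whose peak lists are described here, and 2 were input chromatin (A and B), which enter only as the background of each peak. The labels give no drug, time point or genotype for these cells, so there is 1 condition and no comparison of treatments. The data come from a single cell line, and nothing in the labels says whether the replicates were separate cultures, so the spread between them may be technical. B1 and B2 carry the same letter as input B. The labels describe a melanoma line, but peaks do not measure expression. Of 6 melanocyte genes, MITF, SOX10 and PMEL had a promoter peak in all 3 replicates while MLANA, TYR and DCT had none.

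In this pathway, growth factor receptors switch RAS proteins to their active, GTP-bound state, and RAS recruits RAF kinases to the membrane. RAF phosphorylates the MAP kinase kinases MEK1 and MEK2, which in turn phosphorylate MAP kinases such as ERK1. Mutations of BRAF, NRAS or NF1 activate this cascade in most cutaneous melanomas, and SKMEL-147 is known as an NRAS-mutant line. PHF8 is a histone demethylase with a PHD finger that recognizes a histone mark of active promoters, and it erases methyl groups linked to silencing.

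The reference sequence at the strongest summits is printed to show the base composition where the signal was highest. Peaks were wider than these windows, and for BRAF the strongest summit of B2 lay elsewhere. The windows below are 151 bases centred on the summit of replicate A for the 4 genes whose summit lay upstream of their TSSs or, for HRAS, of its canonical TSS. They are written 5′ to 3′ along the gene in hg19 (plus strand for NF1 and MAP2K1, minus strand for the others), with CpG dinucleotides in capitals, and none of them overlaps an exon.
HRAS, chr11:535833-535983: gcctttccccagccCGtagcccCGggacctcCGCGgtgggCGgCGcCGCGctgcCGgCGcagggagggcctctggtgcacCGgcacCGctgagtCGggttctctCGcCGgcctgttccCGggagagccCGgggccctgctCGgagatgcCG
MAP2K2, chr19:4124315-4124465: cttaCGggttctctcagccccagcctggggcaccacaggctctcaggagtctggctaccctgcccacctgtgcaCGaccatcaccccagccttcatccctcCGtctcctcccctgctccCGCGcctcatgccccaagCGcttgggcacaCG
NF1, chr17:29421639-29421789: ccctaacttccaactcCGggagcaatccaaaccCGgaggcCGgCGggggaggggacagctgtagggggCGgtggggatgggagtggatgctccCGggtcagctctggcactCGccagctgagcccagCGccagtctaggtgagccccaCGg
BRAF, chr7:140624916-140625066: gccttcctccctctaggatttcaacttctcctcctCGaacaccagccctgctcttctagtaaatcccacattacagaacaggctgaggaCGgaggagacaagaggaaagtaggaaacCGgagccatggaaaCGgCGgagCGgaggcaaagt
For the other 3 genes, whose summits lay inside or beside a first exon, 30 bases at the summit of replicate A are shown in the same way.
MAPK3, chr16:30134791-30134820: ggcCGcttCGccatCGaggggagggtgagg
MAP2K1, chr15:66679340-66679369: CGCGCGgctgtgcCGccCGagcCGgaggga
NRAS, chr1:115259239-115259268: ctcatgcatagtgttCGgctttgggctgtg
The HRAS window held 19 CpG dinucleotides, the NF1 window 9, the MAP2K2 window 7 and the BRAF window 6. GC content was 77.5% at the HRAS summit and 53.6% at the BRAF summit. At the NRAS summit of A the 30 bases held 1 CpG, and at the MAP2K1 summit of A they held 6. At the strongest summits of B1 the counts were 1 for NRAS and 0 for MAP2K1, and in B2 they were 0 and 6. Counts in windows this short thus changed with small shifts of the summit.

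PHF8 was bound at the promoters of all 7 genes. A gene was called bound when a promoter peak was present in all 3 replicates, which held for 60.2% of all protein-coding genes (95% Wilson interval 59.5 to 60.9). All 7 genes have a CpG-island-like promoter, meaning that within 250 bp of a TSS the GC share reached 0.5 and CpG was found at 0.6 or more of the frequency its bases predict (the CpG ratio). Among the 14591 protein-coding genes of that kind, 79.5% were bound, against 9.59% of the 5571 others. The 7 of 7 thus stands beside a high background, and the count alone does not set these genes apart from other CpG-rich promoters. All 7 were also bound with a q-value below 0.001 (60.1% of protein-coding genes), above 4-fold enrichment (59.8%) or 10-fold enrichment (49.6%), with lists of equal length (60.0%) and with a window of 500 bp (59.8%) or 2 kb (60.9%). They stayed bound with the summit required inside the window (59.9%), with a peak in 2 replicates sufficing (61.3%), and without A (60.3%), B1 (60.6%) or B2 (60.8%). With peaks above 15-fold enrichment, 4 of the 7 were bound (NRAS, BRAF and MAPK3 were not) beside 36.8% of protein-coding genes. Above 20-fold, HRAS and MAP2K2 were bound, 2 of the 7, beside 23.8%. The shares at these limits are of all protein-coding genes and not of CpG-island-like promoters alone, which all 7 genes have. With 1 TSS per gene, at the gene's outermost 5′ end, 6 of the 7 were bound beside 54.0%, and HRAS was the gene lost.

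HRAS had the highest mean fold enrichment of the 7 genes, although in A both MAP2K2 (53.0-fold) and MAP2K1 (50.5-fold) were above it. HRAS (ENSG00000174775) encodes a small GTPase that cycles between GDP- and GTP-bound states and lies on chromosome 11 (532242 to 537321, minus strand). Fold enrichment compares ChIP fragments at the summit with the local background, and the strongest HRAS peak had 49.2-fold in A, 39.4-fold in B1 and 27.5-fold in B2. These values lay at percentiles 85.3, 97.6 and 84.0 of bound protein-coding genes of the same replicate, so HRAS was in the upper part of each list. The number of ChIP fragments at the summit, recovered from fold enrichment and p-value, was 180, 139 and 124 (A, B1, B2), with 95% exact Poisson intervals of 155 to 208, 117 to 164 and 103 to 148. The local background at this summit was 2.68, 2.55 and 3.55 fragments, above the genome-wide floors of 1.567, 1.932 and 2.044. Ranked by fragments in place of fold enrichment, HRAS stood at a mean percentile of 97.4 rather than 88.9. The summit lay 332, 321 and 337 bp upstream of the canonical TSS in A, B1 and B2. That position is within an intron of longer HRAS transcripts, which start up to the end of the gene record. In B1 alone the promoter was divided in 2 peaks, and the weaker one, with a fold enrichment of 15.3, had its summit in an HRAS 5′ untranslated exon.

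NRAS had lower fold enrichment than HRAS in each replicate and fewer bases covered by peaks. NRAS (ENSG00000213281, chromosome 1, 115247090 to 115259392, minus strand) encodes the RAS protein most often mutated in melanoma, and it was the only gene of the 7 with a single annotated TSS. On the log2 scale its fold enrichment was 4.68, 4.02 and 3.90 for A, B1 and B2, or 25.7-fold for A and 16.2-fold for B1, at percentiles of 30.5, 37.2 and 35.2. All 3 values lay below the median of bound genes, and NRAS had the smallest spread of percentile among the 7 genes, at 34.3 ± 3.44 (SD, n = 3). For A, B1 and B2 the NRAS summits held 65 fragments (50.2 to 82.8), 51 (38.0 to 67.1) and 49 (36.3 to 64.8). They fell 138, 133 and 116 bp downstream of the TSS, just inside the first intron. The peak spanned 348 bp in A, 449 bp in B1 and 277 bp in B2. It lay almost wholly downstream of the TSS in A and B2 and mostly so in B1. No other gene had a TSS window that met these peaks.

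BRAF had the lowest mean fold enrichment. BRAF (ENSG00000157764, chromosome 7, 140419127 to 140624729, minus strand) encodes the RAF kinase that carries the commonest driver mutation of melanoma. Its strongest peak had 27.7-fold enrichment in A, 12.3-fold in B1 and 11.2-fold in B2, at percentiles of 35.5, 21.2 and 19.3. All 3 values lay below the median of bound genes, which was 33.4, 19.4 and 18.4 in A, B1 and B2. BRAF had 70 summit fragments in A (54.6 to 88.4), 35 for B1 (24.4 to 48.7) and 33 for B2 (22.7 to 46.3).

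The BRAF signal had 2 modes of near-equal height on either side of the canonical TSS. In B1 the upstream summit (222 bp upstream, 12.3-fold, 35 fragments) stood beside a downstream summit 327 bp downstream (10.9-fold, 31 fragments). In B2 the downstream mode was the higher, with 11.2-fold and 33 fragments at 370 bp against 9.86-fold and 29 fragments at 293 bp upstream. The log2 difference of downstream minus upstream was -0.17 in B1 and 0.18 in B2, and the counting intervals of the fragments overlapped. The downstream summit was in coding sequence of an exon in B1 and in an intron in B2. In A a single peak of 1073 bp covered the region, with its summit 262 bp upstream of the TSS. Which mode is called the BRAF summit thus differed between replicates while the bases covered did not, at 1073, 1086 and 1055 bp.

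Both MAP kinase kinase genes had peaks above the median in A. MAP2K1 (ENSG00000169032, chromosome 15, 66679175 to 66783994, plus strand) encodes MEK1, and MAP2K2 (ENSG00000126934, chromosome 19, 4090319 to 4124119, minus strand) encodes MEK2, the kinases that MEK inhibitors act on. MAP2K2 was enriched 53.0-fold in A, 23.3-fold in B1 and 20.9-fold in B2, at percentiles of 90.3, 65.9 and 60.9. All 3 values were above the median of bound genes. MAP2K1 was enriched 50.5-fold in A, 19.7-fold in B1 and 18.0-fold in B2, at percentiles of 87.0, 51.6 and 48.4. The MAP2K1 promoter was thus well above the median in A and close to the median in both B replicates, and its percentile had the largest spread of the 7 genes, at 62.3 ± 21.4 (SD, n = 3). The MAP2K2 summits carried 135, 95 and 89 fragments, and those of MAP2K1 134, 69 and 65.

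The 2 MEK genes differed in where the summit stood. MAP2K2 had 1 peak per replicate, of 929, 906 and 844 bp, with summits 271, 305 and 298 bp upstream of its TSS in sequence that belongs to no annotated gene. The highest MAP2K1 summits lay in its 5′ untranslated exon, 105 bp downstream of the canonical TSS in A, 137 bp in B1 and 97 bp in B2. A and B1 also had a separate upstream MAP2K1 peak of 30.4-fold and 14.9-fold, with summits 335 and 351 bp upstream of the canonical TSS. TIPIN, which encodes a protein of the replication fork, starts 166 bp from the canonical TSS of MAP2K1 on the opposite strand, and the upstream summits lie in a TIPIN untranslated exon. The TIPIN windows met the MAP2K1 peaks in all 3 replicates, so the upstream signal cannot be assigned to either gene. The downstream peaks also lie within 1 kb of the TIPIN start, so the MAP2K1 fold enrichments cannot be assigned to MAP2K1 alone. In B2 a single peak of 1164 bp covered both positions.

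MAPK3 (ENSG00000102882, chromosome 16, 30125426 to 30134827, minus strand) encodes ERK1, the MAP kinase at the end of the cascade. It was enriched 39.0-fold in A, 14.6-fold in B1 and 17.2-fold in B2, at percentiles of 64.4, 30.8 and 45.3. It was above the median of bound genes in A and below it in both B replicates. The MAPK3 summits carried 99, 51 and 62 fragments. They had the most precise position of the 7 genes, within 6 bp of each other, at 21, 15 and 17 bp downstream of the most upstream TSS and in an untranslated exon that begins there. Relative to the canonical MAPK3 TSS, the same summits lay 265, 271 and 269 bp upstream.

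NF1 (ENSG00000196712, chromosome 17, 29421945 to 29709134, plus strand) encodes neurofibromin, a GTPase-activating protein that returns RAS to its inactive state. NF1 was enriched 43.6-fold in A, 21.5-fold in B1 and 17.8-fold in B2, at percentiles of 74.8, 59.3 and 47.9. The values of A and B1 lay above the median of bound genes and that of B2 just below it. The NF1 summits carried 112, 71 and 61 fragments and lay 231, 251 and 256 bp upstream of the nearest NF1 TSS. The lncRNA gene MIR4733HG runs through this position on the opposite strand, and its windows, like those of the miRNA gene MIR4733, met the NF1 peaks in all 3 replicates. The strongest NF1 peak was the widest of the 7 genes in each replicate, at 1169, 1243 and 1306 bp. It also spans a MIR4733HG TSS 473 bp downstream of the canonical NF1 TSS, so its signal and width cannot be assigned to NF1 alone. In A a separate weak peak of 4.32-fold and 12 fragments (6.20 to 21.0) stood 647 bp downstream of the nearest TSS.

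Ordered by mean log2 fold enrichment, the genes ran HRAS (5.23 ± 0.42), MAP2K2 (4.88 ± 0.73), MAP2K1 (4.71 ± 0.82), NF1 (4.68 ± 0.68), MAPK3 (4.42 ± 0.76), NRAS (4.20 ± 0.42) and BRAF (3.96 ± 0.72), each with the SD of 3 replicates. The whole scale of A was higher, so differences were taken within replicates. They were tested by flipping signs in an exact permutation test (two-sided), whose p cannot go below 0.25 with 3 replicates. The test and the SDs count B1 and B2 as separate replicates, although they share a letter and may share a preparation or an input. The neighbouring pairs come from the order itself, so their p-values are no independent test of it. On the log2 scale HRAS exceeded BRAF by 0.83, 1.68 and 1.30 for A, B1 and B2, a mean of 1.27 ± 0.43 (SD, n = 3), or 2.41-fold. This pair was chosen as the highest and the lowest of the 7, so the difference is a description of the ranking. The counting intervals of the summit fragments did not overlap in any of the 3 replicates.

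No neighbours in this order were separated by the test. MAP2K2 exceeded MAP2K1 in 3 of 3 replicates by a mean of 0.18 ± 0.09, and NF1 exceeded MAPK3 in 3 of 3 by 0.26 ± 0.27 (exact permutation p = 0.25 for both, 0.583 after Benjamini-Hochberg adjustment over 7 pairs, HRAS and BRAF included). The other 4 neighbouring pairs changed order between replicates. HRAS and MAP2K2 differed by 0.35 ± 0.43, MAP2K1 and NF1 by 0.03 ± 0.17, MAPK3 and NRAS by 0.22 ± 0.37, and NRAS and BRAF by 0.24 ± 0.30 on the log2 scale (exact permutation p between 0.5 and 0.75). Without replicate A the difference of MAP2K1 and NF1 was -0.06, so their order turned. Of the 21 values of 7 genes in 3 replicates, 11 were above the median of bound protein-coding genes. The median of the 7 mean percentiles was 60.7, beside 50.8 over all bound protein-coding genes.

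**Figure D1:**
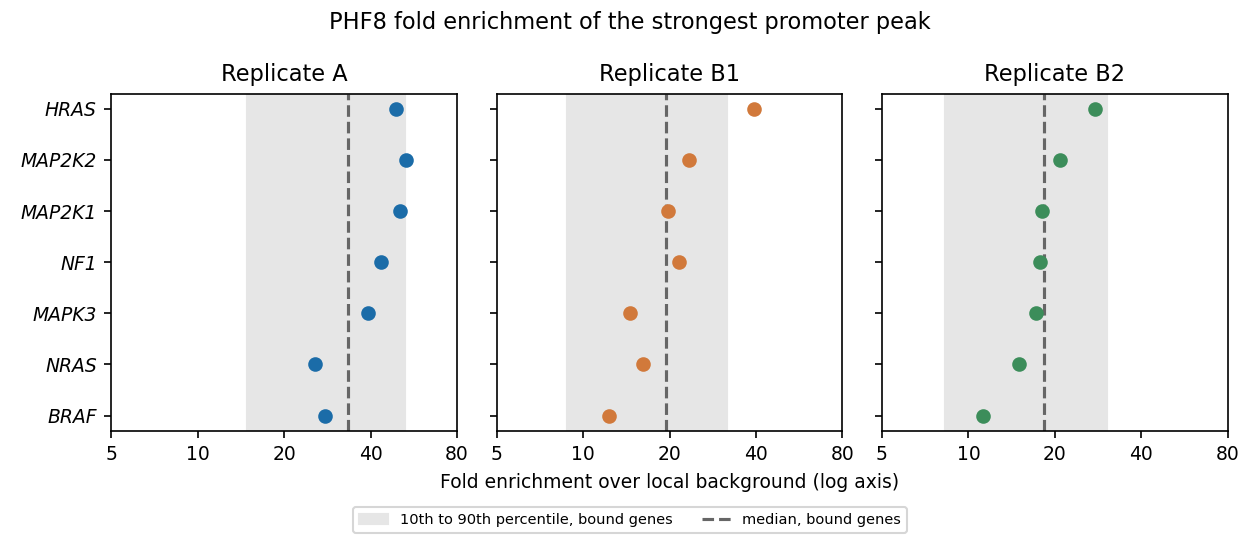
Fold enrichment of the strongest promoter peak of each gene (points, log axis) in replicates A, B1 and B2, with the median of the 12139 bound protein-coding genes (dashed line) and their 10th to 90th percentile (grey). HRAS lies above the median in each panel, reaching 39.4 in B1, while NRAS and BRAF lie below it in all 3.

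In most of these promoters the highest point lay upstream of the canonical TSS. HRAS, MAP2K2, NF1 and MAPK3 had their strongest summit upstream of the canonical TSS in all 3 replicates, between 265 and 337 bp from it, and BRAF did so in A and B1. That made 5, 5 and 4 of the 7 genes for A, B1 and B2. Over all bound protein-coding genes, 30.3%, 30.7% and 29.9% had such a summit. Relative to the nearest TSS of any transcript, which moves MAPK3 to the downstream side, the counts were 4, 4 and 3 of 7 beside 34.0%, 33.9% and 33.5%. With 7 genes these shares are a description, and nothing particular to the list is read from them. MAP2K1 and NRAS had the strongest summit between 97 and 138 bp downstream in all 3 replicates.

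The number of peaks into which a promoter was divided varied between replicates. At least 2 promoter peaks were listed for 2, 3 and 1 of the 7 genes (A, B1, B2), beside 45.2%, 48.4% and 47.7% of bound protein-coding genes. The bases covered by promoter peaks were 1070 bp ± 15.6 (SD, n = 3) for BRAF, 1130 bp ± 25.4 for MAP2K1, 1170 bp ± 38.6 for HRAS and 1340 bp ± 110 for NF1. They ran from 844 to 929 bp for MAP2K2 and from 799 to 909 bp for MAPK3. NRAS had the fewest bases covered, with 358 bp ± 86.4, at percentiles 2.95, 8.74 and 3.72 of bound genes in A, B1 and B2. The median gene was covered over 1020, 964 and 929 bp. BRAF had a lower mean fold enrichment than NRAS over a region of 1070 bp, but in A NRAS was the lower (25.7-fold against 27.7-fold). Whether fold enrichment and bases covered are linked was not tested.

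**Figure D2:**
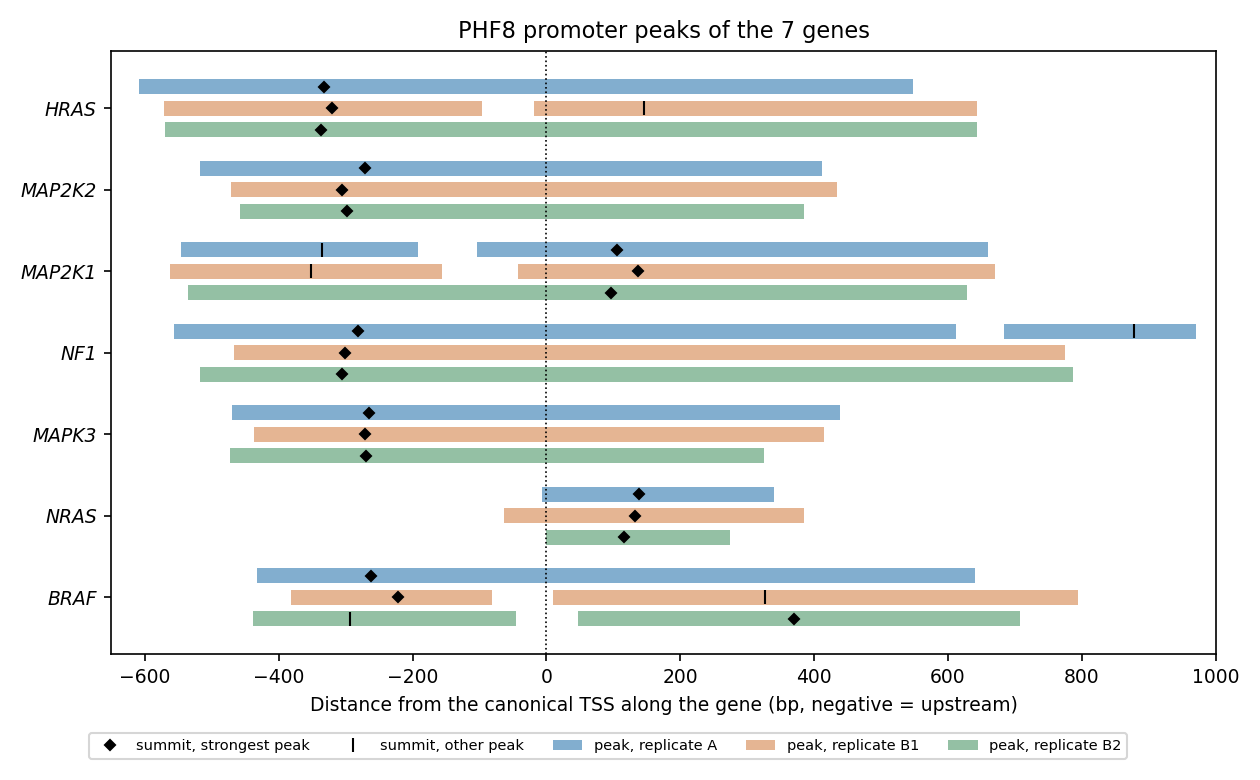
Peaks (bars, coloured by replicate) and summits (diamonds for the strongest peak, ticks for others) of the 7 genes, by distance in bp from the canonical TSS along the gene. NRAS peaks of 277 to 449 bp begin close to the TSS, while BRAF, MAP2K1 and HRAS peaks extend to both sides, as 1 peak in some replicates and as 2 in others.

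Peaks of the 7 genes were listed at the main promoter alone. The 7 genes have 98 annotated TSSs, of which 34 had a peak within 1 kb in all 3 replicates and 64 did not. TSSs close together count the same peak more than once, and the share for other bound genes was not computed. The counts thus describe these genes and do not set them apart. In BRAF, 10 of 19 TSSs were covered, in NF1 3 of 33, in MAP2K2 2 of 14, in MAP2K1 2 of 8, in MAPK3 10 of 14 and in HRAS 6 of 9. The nearest uncovered TSS was 88696 bp from the canonical TSS in BRAF, 33481 bp in NF1, 14829 bp in MAP2K1, 5961 bp in MAP2K2, 5934 bp in MAPK3 and 1600 bp in HRAS. Elsewhere in the gene bodies, 0 peaks were listed for any of the 7 genes in any replicate. BRAF and NF1 extend over 205603 and 287190 bp. A further peak in the gene body was listed for 11.9% of bound protein-coding genes, and for 19.9% of those of 100 kb or more. Most bound genes thus had none, and with 7 genes a count of 0 is near these shares and not particular to the list. The weakest summits on the lists carried 8, 8 and 10 fragments (A, B1, B2), so weaker binding at internal TSSs was not detectable at this depth.

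The 7 promoters differed in base composition. Within 250 bp of the canonical TSS, GC content was 81.0% for HRAS, 78.2% for MAP2K2, 77.6% for MAPK3, 74.1% for BRAF, 72.1% for MAP2K1, 68.5% for NF1 and 54.7% for NRAS. The median was 67.7% for bound protein-coding genes and 57.3% for the rest, so NRAS alone lay below the value of the unbound genes. Its CpG ratio was 0.831, close to the median of 0.849 for bound genes and above the 0.360 of the rest. The ratio was highest for BRAF at 1.03, followed by MAP2K2 at 0.995, HRAS at 0.944, MAPK3 at 0.868 and MAP2K1 at 0.862, and it was lowest for NF1 at 0.688. The gene with the highest CpG ratio, BRAF, had the lowest mean fold enrichment of the 7. MAP2K2 and HRAS, next in CpG ratio, had the highest means, and a relation of the 2 measures was not tested. For BRAF, GC content depended on which of its summits was read. The 151 bases printed above, at its upstream summit of A, had 53.6%. Upstream windows of the same length gave 55.6% for B1 and 50.3% for B2. Downstream windows gave 77.5% for B1, with 21 CpG dinucleotides, and 74.2% for B2, with 20. The downstream BRAF summit was the stronger of the pair for B2 and the weaker for B1. The 74.1% around the BRAF TSS comes from a longer window.

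**Figure D3:**
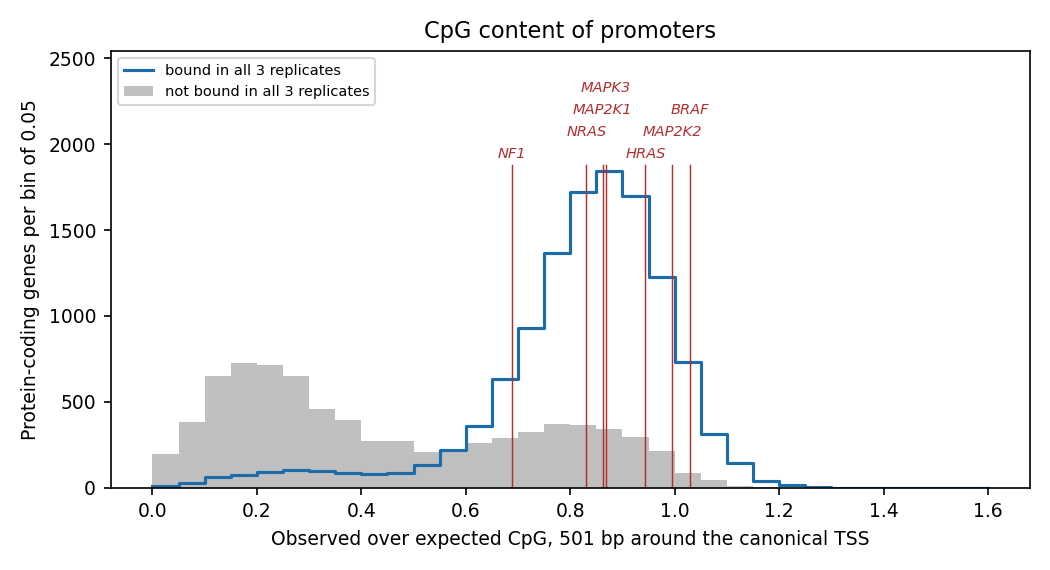
CpG ratio (observed over expected) within 250 bp of the canonical TSS for protein-coding genes bound in all 3 replicates (blue outline, 12115 genes) and for the other 7766 (grey bars), in genes per bin, with the 7 genes as red lines. The 7 genes lie between 0.688 (NF1) and 1.03 (BRAF), inside the range of the bound genes.

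Short promoter motifs were counted from 250 bp upstream to 50 bp downstream of the canonical TSS on both strands, and none of the 6 motifs contains another. The GC box GGGCGG occurred in 6 of the 7 promoters, beside 61.4% of 19881 protein-coding promoters and 75.8% of bound ones. MAPK3 held 8 copies, HRAS 5, NRAS and MAP2K1 3 each, MAP2K2 2 and BRAF 1, and these letters were not in the NF1 window. The NF1 window held the ETS motif CCGGAAG, as did those of NRAS and HRAS (14.1% of all promoters and 20.9% of bound ones), and the cyclic AMP response element TGACGTCA, as did that of BRAF (2.68% and 3.6%). The E-box CACGTG was found in the NRAS and MAPK3 windows (8.76% and 10.5%) and the CCAAT box in those of HRAS, BRAF and MAP2K1 (36.0% and 36.8%). The letters TATAAA were in none of the 7 windows and in 9.62% of all promoters and 4.62% of bound ones. A match is a description of the sequence and not a site of binding.

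Other genes of the pathway were read from a list of 51 genes, which is not complete. Of these, 40 were bound in all 3 replicates (78.4%, 95% Wilson interval 65.4 to 87.5), beside 60.2% of protein-coding genes. Within CpG-island-like promoters the count was 39 of 48 (81.2%), beside 79.5%. The median of the mean percentiles of the bound genes was 54.7. Above 15-fold enrichment 24 of the 51 were bound (47.1%), beside 36.8% of protein-coding genes, and above 20-fold 18 (35.3%), beside 23.8%. At these limits the share within CpG-island-like promoters, which 48 of the 51 genes have, was not computed. No excess of strong peaks in the list is therefore read from these counts.

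Upstream of RAS, 6 of 12 adaptor and exchange factor genes were bound. Of the 10 among them with a CpG-island-like promoter 6 were bound (60.0%), beside 79.5% of all such protein-coding genes. GRB2, the adaptor that couples receptors to the exchange factor SOS1, had the highest percentile of the list, at 98.6 ± 0.964 (SD, n = 3), at 70.0-, 39.9- and 39.2-fold. The exchange factor genes RASGRF1, RASGRF2, RASGRP1, RASGRP2 and RASGRP4 had no promoter peak in any replicate. All 3 other RAS-like GTPase genes, each with a CpG-island-like promoter, were bound beside the same 79.5%. RRAS2 was the highest of them at a percentile of 80.1 ± 13.2. Among the genes of GTPase-activating proteins and NF1 partners, 9 of 12 were bound. Of the 11 with a CpG-island-like promoter 8 were bound (72.7%), beside 79.5%. RASA2, which inactivates RAS as NF1 does, was highest at 94.5 ± 3.11, with 53.6-, 38.6- and 34.5-fold. RASAL1, RASAL3 and RASA4 had no peak. RASA4 has near-identical copies in the genome, so its value is uncertain.

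All 10 genes of RAF regulators and scaffolds were bound, beside the 79.5% of CpG-island-like promoters, which all 10 have. They ran from KSR2 at a percentile of 5.16 ± 5.51 to LZTR1, an adaptor for the degradation of RAS proteins, at 93.4 ± 2.17. KSR2 and RASGRP3, with a peak of 5.30-fold in B1 alone, were named after their values were seen, as was MAPK11, with a peak of 3.75-fold in B1 alone. All 5 other MAP kinase kinase genes, each with a CpG-island-like promoter, were also bound beside that share, with MAP2K4, a kinase of the stress-activated branch, highest at 90.4 ± 4.22. Of 9 other MAP kinase genes, all with a CpG-island-like promoter, 7 were bound (77.8%), close to the 79.5% of such promoters. MAPK8, the stress kinase JNK1, was highest at 97.7 ± 1.48 and 59.5-, 43.6- and 37.6-fold. MAPK13 had no peak in any replicate. In each role group with more than 3 bound genes the lowest mean percentile was at most 25 and the highest at least 90.4, so strong and weak promoters occurred side by side.

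**Figure D4:**
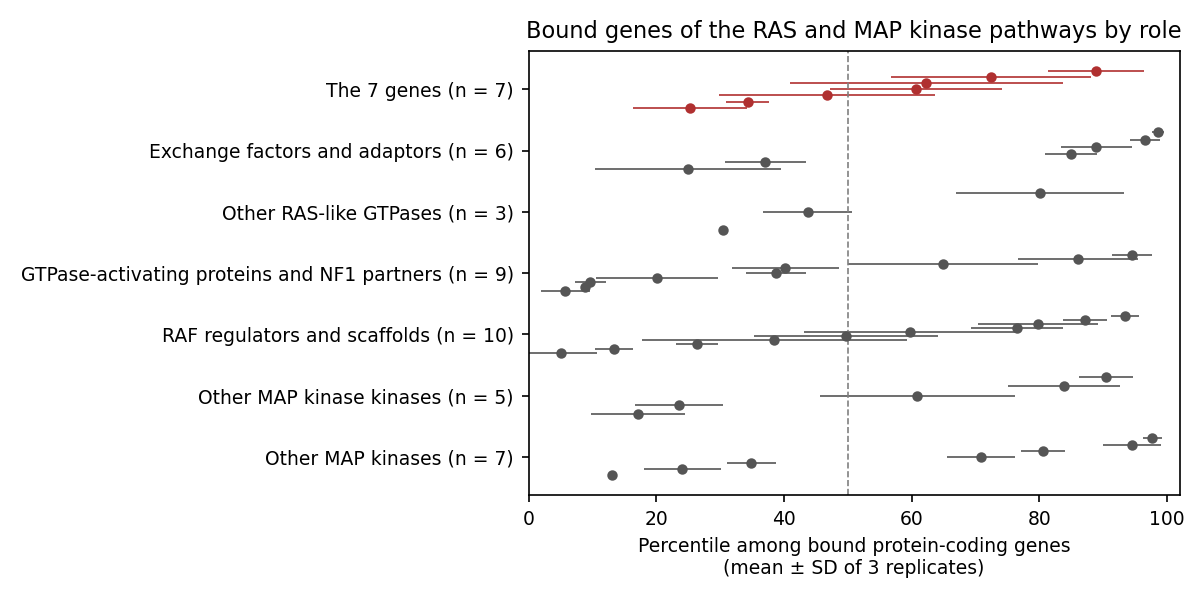
Percentile of fold enrichment among bound protein-coding genes (points, mean; bars, SD of 3 replicates) for the 7 genes in red and for the bound genes of the pathway list by role in grey. The 7 genes run from 25.3 (BRAF) to 88.9 (HRAS), and GRB2 and MAPK8 lie at 98.6 and 97.7.

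The bound protein-coding genes most like each member were found from the largest difference in percentile over the 3 replicates, among about 12132 genes that shared no peak with it. CCDC82 was most like NF1, with no replicate differing by more than 0.947 percentile points. ACER3 was most like HRAS (1.47 points), FAM98C like NRAS (1.80), SERINC1 like BRAF (1.80), TBC1D14 like MAP2K2 (1.96) and ZNF26 like MAP2K1 (2.45). MASTL was most like MAPK3, at 4.06 points. With 3 replicates of 1 condition such likeness is one of level only.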

How the data were processed

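PHF8 ChIP-seq peak lists of SKMEL-147 cells were analysed for 3 replicates. Per the study's methods and the labels, the authors aligned reads to hg19 (GRCh37) with Bowtie2 at default settings and called narrow peaks with MACS for each replicate separately against input. Picard is named in the submitters' processing notes without its step, and treatment of duplicates and read totals are not given in the sources used here. For each peak the authors deposited fold enrichment (a linear ratio over the local background), −log10 p-value and −log10 q-value, a score (10 times the −log10 q-value, not used) and the summit offset. All peaks passed a fold enrichment above 1.5 and q below 0.05, and 0 failed. Median fold enrichment was 18.9, 11.8 and 11.8 for 21506, 20882 and 20120 peaks in A, B1 and B2.

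TSSs were the 5′ ends of GENCODE release 44 transcripts lifted to GRCh37, mitochondrial genes left out, and a peak overlapping a window by at least 1 bp counted. The canonical TSS is that of the transcript marked Ensembl canonical. Percentiles rank the strongest promoter peak among the 12139 bound protein-coding genes. Summit fragments n solve fold = (n + 1)/(background + 1) with a Poisson p of more than n, which gave whole numbers for 100% of peaks (tolerance 0.001 in −log10 p). Intervals cover counting error only, since reads carry no molecular identifiers. The overlap and fragment steps were tested on simulated data. Sequences came from GRCh37. Python 3.11.15, scipy 1.17.1 and pandas 2.3.3 were used.

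The members, the pathway list and the tests were chosen with earlier results of these data known. Named were the 7 genes, genes sharing their peaks, the highest bound gene of each role group, list genes with no peak, and the most similar gene to each member. Alternatives were other q, fold and size limits, TSS windows, summits, single TSSs, 2 replicates, fragments, and leaving out each replicate.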

Additional observations from a re-analysis of the deposited data

How the results depend on the processing

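All 7 genes were bound under a q-value below 0.001, fold enrichment above 4 or 10, lists of equal size, windows of 500 bp or 2 kb, summits inside the window, a peak in at least 2 replicates, and without each replicate. Fold limits above 15 and 20 left 4 and 2 of the 7 genes, 24 and 18 of the 51 pathway genes, and 36.8% and 23.8% of protein-coding genes, since stricter limits keep fewer peaks. With the 5′ end of the gene record as the TSS, 6 of the 7 genes were bound, HRAS had no value for its differences, and its summit lay 1420 bp downstream of that end. With all promoter peaks of MAP2K1 averaged, its mean position moved from 113 bp downstream to -16.7 bp, upstream, because the upstream peaks then count. The same averaging moved NF1 from -246 to -99.7 bp and HRAS from -330 to -292 bp. Leaving out each replicate in turn, the log2 difference of MAP2K1 minus NF1 ran from -0.06 without A to 0.11 without B1, and its direction turned without A. The other differences kept their direction, but several moved by over 1.5 times. MAPK3 minus NRAS was 0.03 without A and 0.40 without B1, HRAS minus MAP2K2 was 0.58 without A and 0.14 without B1, NF1 minus MAPK3 was 0.11 without B1, and NRAS minus BRAF was 0.41 without A, 0.16 without B1 and 0.15 without B2. With 3 replicates the exact test cannot pass 0.05, so its p says nothing on stability. No paired analysis was possible because the peak lists form 1 group, so there are no groups of samples to pair. Differences between genes were already taken within replicates. Depth limits the lists to summits of at least 8 to 10 fragments.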
